A study of Rattus norvegicus with 50 samples.

Results

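The change in whole blood RNA between day 0 and day 14 after an injection of monosodium iodoacetate (MIA) was set against the change over the same days in rats that were not injected. The comparison used 20 of the 50 arrays of the series, those of 6 MIA rats at day 14 and at day 0 and of 4 naive rats at day 14 and at day 0, and the difference of changes is the mean change of the MIA rats minus the mean change of the naive rats. All were male Wistar rats bled from a tail vein, and their age was not given. Day 0 was before the injection, and the MIA rats then received MIA in saline into the right knee joint under isoflurane. The naive rats are labelled naive, no group of rats given saline alone is among the samples, and MIA, needle and anaesthesia cannot be told apart. The labels name 4 naive rats, although equal group sizes are stated in the methods.

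MIA blocks glycolysis in chondrocytes, and the loss of these cells is followed by cartilage loss and pain, which makes it a common model of osteoarthritis. Whole blood RNA comes largely from young red cells, neutrophils, lymphocytes and platelets, so a level in it reflects both how many cells of a type are present and how much RNA each holds, and these cannot be told apart here. G13, a heterotrimeric G protein, passes signals from receptors to the cell skeleton, and its alpha subunit, encoded by Gna13, is used by leukocytes and platelets when they migrate or change shape.

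Values are log2 signals of 36685 probe sets on the Affymetrix Rat Gene 2.0 ST array, and a difference of 1 is a doubling. Of the defining markers of blood cells, the 10 that were measured stood at mean levels of 4.11 to 11.44, above the median probe set at 2.26, and none had an unadjusted p under 0.05 in the difference of changes. They included S100a8 and S100a9 of neutrophils, Cd14 and Csf1r of monocytes, Cd3e and Cd3d of T cells, Pf4 of platelets and Slc4a1 of red cells. Cd79b, Itga2b and Alas2 were not analysed here. The array of MIA replicate 2 at day 14 stood apart, with a mean correlation of 0.943 with the other 19 arrays, where those had 0.955 to 0.966. Its mean signal was 2.72, against 2.87 to 2.95 in the other 19. In the brighter part of the probe sets, those at or above the median level, the median change of this rat was −0.33, whereas it lay between −0.07 and 0.10 in the other 5 MIA rats and between 0.01 and 0.06 in the 4 naive rats.

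**Figure D1:**
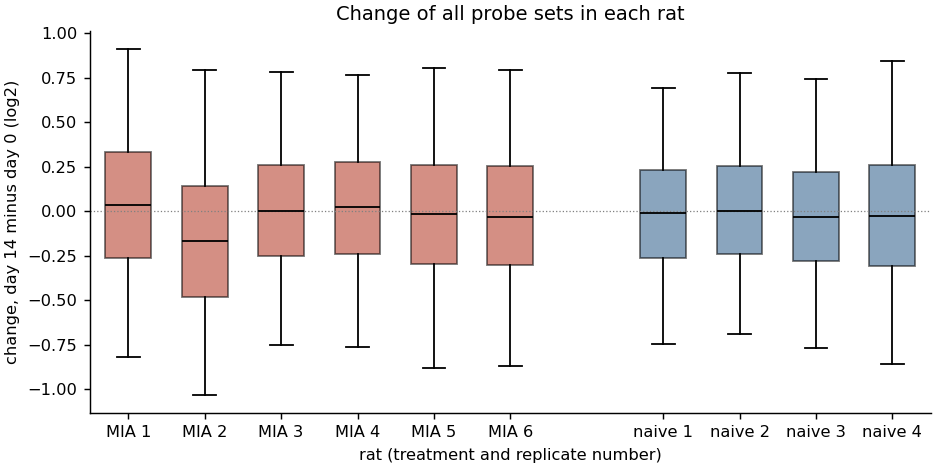
Change of each rat (day 14 minus day 0, log2, vertical axis) over 36685 probe sets, for 6 MIA rats (red) and 4 naive rats (blue). The line in a box is the median, the box runs between the quartiles and the whiskers run between the 5th and 95th percentiles. MIA replicate 2 has the lowest median, −0.16, against −0.03 to 0.03 in the other 9 rats.

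No probe set differed between the MIA and the naive change at an adjusted p under 0.05 (0 of 36685, 0%; limma with Benjamini-Hochberg adjustment, smallest adjusted p = 0.46). At an unadjusted p under 0.05 the MIA change was higher for 686 probe sets (1.87%) and lower for 885 (2.41%). Without MIA replicate 2 these counts were 802 and 703, and none passed the adjusted test. The median difference over all probe sets was −0.01, and the median 95% interval reached 0.53 to each side with 6 and 4 rats. The changes of the 6 MIA and 4 naive rats did not overlap for 146 probe sets that were higher in MIA (0.398%) and for 141 that were lower (0.384%). Every MIA rat was above its day 0 level and every naive rat below it for 24 probe sets (0.0654%), and the reverse held for 18 (0.0491%). For a single gene with no overlap the exact permutation test over the 10 rats gives p = 0.0095, two-sided, the smallest that this design allows. With no true difference, a probe set has no overlap, in either direction, with this same probability. For a gene picked for having no overlap this p is fixed by the pick and is no support. Identical values were found for 1401 probe sets and at least 1 other, so probe sets are not all separate measurements.

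Neither arm alone held a change past the adjusted test. In MIA rats, day 14 was higher than day 0 for 867 probe sets (2.36%) and lower for 1589 (4.33%) at an unadjusted p under 0.05, with 0% past the adjusted test. In naive rats, day 14 was higher for 1418 (3.87%) and lower for 1198 (3.27%), also with 0% past it. The higher and lower counts within an arm moved with the scaling. When all arrays were shifted to the same median, MIA rats had 1438 higher and 950 lower, and naive rats 2183 higher and 696 lower. After quantile normalization of the 20 arrays again, MIA rats had 1282 higher and 1466 lower. For the difference of changes the first of these scalings gave 613 higher and 942 lower.

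The genes with the lower MIA changes were led by the kinase gene Tnk2. Among probe sets with 1 ordinary gene symbol, at least the median level and no overlap between the groups, the 12 lowest had differences between −1.16 and −0.68, with standard errors of 0.16 to 0.30, unadjusted p between 5.01e-05 and 0.039, and adjusted p between 0.46 and 1.00 in limma. Since they were picked for having no overlap, their separation is a description. In all 12 the mean MIA change was below 0 and the mean naive change above 0, and in 8 of 12 the naive change was the larger.

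Tnk2 encodes a tyrosine kinase that binds the GTPase Cdc42. Its change was −1.01 in the lowest, −0.83 in the median and −0.48 in the highest of the 6 MIA rats, against 0.68, 0.03, 0.21 and 0.60 in the 4 naive rats. Every MIA rat was thus below its day 0 level and every naive rat above it. At day 14 the level was 2.78, 3.03 and 3.22 (lowest, median and highest) in MIA rats, against 3.93, 3.13, 3.18 and 3.09 in naive rats. At day 0 it was 3.62, 3.80 and 3.98 in MIA rats, against 3.24, 3.11, 2.97 and 2.49 in naive rats. The groups were thus separate before the injection, with MIA rats higher by 0.85 ± 0.16 (SE), and overlapped at day 14, when MIA rats were lower by 0.32. The difference of changes was −1.16 ± 0.19 (SE; 95% interval −1.57 to −0.76; adjusted p = 0.46 in limma), and it was −0.84 when the day 0 level was a covariate.

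Gna13, the alpha subunit of G13, had a different course. Its change was −0.45, −0.21 and 0.43 (lowest, median and highest) in MIA rats, against 0.55, 0.55, 0.93 and 1.12 in naive rats. The MIA rats were spread on both sides of 0 and all 4 naive rats were above 0.5. The level at day 14 was 5.46 to 5.94 in MIA rats, against 6.32, 6.04, 5.91 and 6.17 in naive rats, so that the highest MIA rat exceeded only the lowest naive rat. At day 0 it was 5.29 to 6.07 in MIA rats, against 5.77, 5.48, 4.98 and 5.04 in naive rats. The difference of changes was −0.91 ± 0.22 (SE; adjusted p = 1.00 in limma), made of an MIA mean of −0.12 and a naive mean of 0.79, and it was −0.51 with the day 0 level as covariate. Ppp1cb, a catalytic subunit of protein phosphatase 1, which acts on myosin, differed by −0.45 ± 0.15 (SE), with changes of −0.60 to −0.16 in MIA rats and −0.04 to 0.25 in naive rats. The study named Tnk2, Gna13 and Ppp1cb from the same samples, so their values are no independent support for each other.

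The other 10 genes of this set have various roles. Smco4, a small membrane protein, had changes of −0.68 to −0.23 in MIA rats, against 0.39, 0.36, 0.12 and 0.14 in naive rats, again on opposite sides of 0 in every rat (difference −0.77 ± 0.16, SE). Lmbr1, a membrane protein whose gene holds a limb enhancer of Shh in an intron, differed by −0.85, and the membrane-anchored ubiquitin-like protein Ubl3 by −0.74. Ccrl2, an atypical receptor that binds the chemoattractant chemerin on leukocytes, differed by −0.78, with changes of −0.72 to 0.09 in MIA rats, against 0.87, 0.17, 0.28 and 0.60 in naive rats. Of genes for RNA and ribosomes, Gtf3c6 (a subunit of transcription factor IIIC) differed by −0.73, Thumpd3 (a tRNA methyltransferase) by −0.70 and Pno1 (an assembly factor of the small ribosomal subunit) by −0.68. Of genes for ubiquitin ligases, Dtx2 (a Deltex protein of the Notch pathway) differed by −0.70, the peroxisomal Pex10 by −0.69 and the substrate adaptor Rab40c by −0.69. Pex10 was dim, at a level of 2.38, just above the median probe set at 2.26. Leaving out any rat kept these 12 differences between −1.28 and −0.49, and without MIA replicate 2 they were −1.13 to −0.60. With the day 0 level as covariate they were −0.84 to −0.37.

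**Figure D2:**
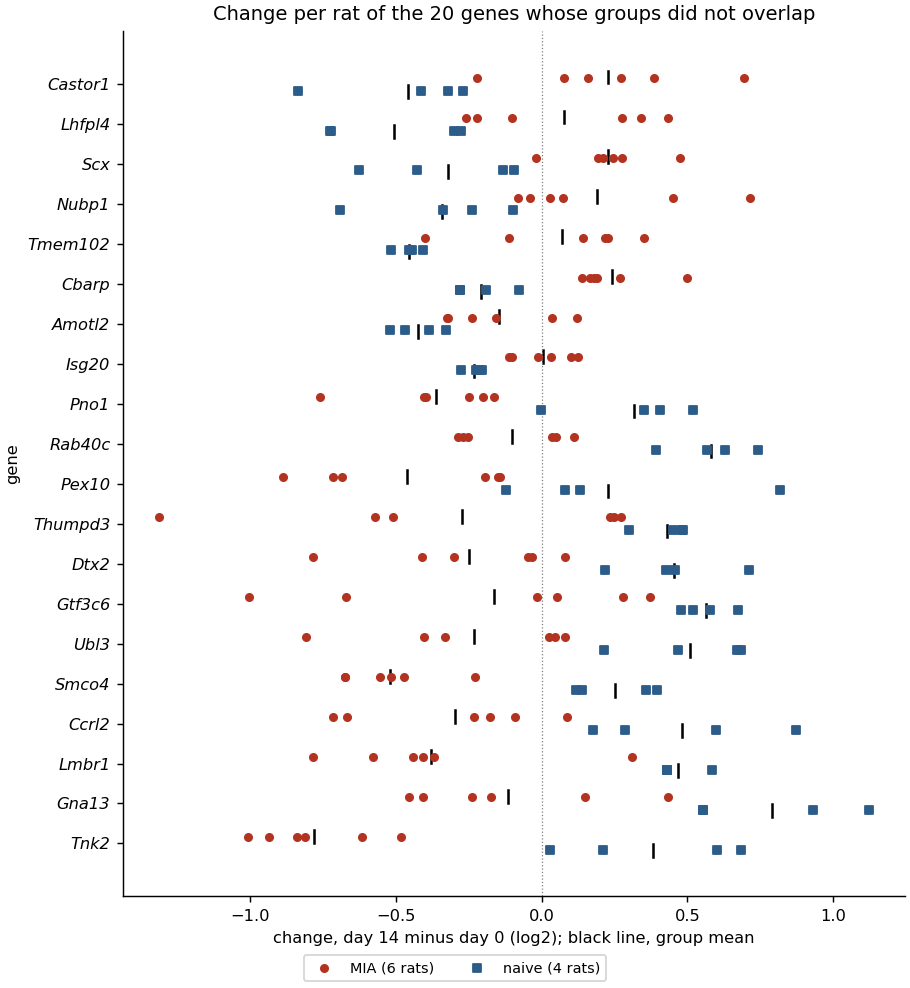
Change of each rat (day 14 minus day 0, log2, horizontal axis) for the 8 higher and 12 lower genes chosen for having no overlap between 6 MIA rats (circles, upper row of a gene) and 4 naive rats (squares, lower row). Black lines are group means. Tnk2 and Smco4 at the lower end and Cbarp at the higher end have all MIA rats on one side of 0 and all naive rats on the other.

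Higher MIA changes without overlap were smaller. The same rule found 8 genes, with differences of 0.24 to 0.69, standard errors of 0.14 to 0.21 and unadjusted p of 0.0057 to 0.12. Castor1, a sensor of arginine for the mTORC1 kinase complex, had changes of −0.22, 0.22 and 0.69 (lowest, median and highest) in MIA rats, against −0.32, −0.41, −0.27 and −0.84 in naive rats. All naive rats were below their day 0 level and 5 of 6 MIA rats above it, and the difference was 0.69 ± 0.20 (SE; adjusted p = 1.00 in limma), or 0.38 with the day 0 level as covariate. Scx, the transcription factor scleraxis of tendon cells, differed by 0.55, and its level of 2.29 was close to that of the median probe set. Castor1 was not far above it, at a level of 2.38. Cbarp, a regulator of voltage-gated calcium channels, had changes of 0.14 to 0.50 in MIA rats, against −0.08, −0.28, −0.28 and −0.19 in naive rats, on opposite sides of 0 in every rat (difference 0.45 ± 0.15, SE). Nubp1, an assembly factor of cytosolic iron-sulfur proteins, differed by 0.53. Lhfpl4, a partner of GABA-A receptors in neurons, differed by 0.58 at a level of 2.48, and Tmem102 differed by 0.53. The brightest was Isg20, an exonuclease induced by interferon, at a level of 10.16, with a difference of 0.24 ± 0.14 (SE), changes of −0.11 to 0.12 in MIA rats and −0.28 to −0.21 in naive rats. Amotl2, a Hippo pathway protein that binds YAP, was the only one of the 8 with a mean MIA change below 0 (−0.15, against −0.43 in naive rats). In 7 of 8 the naive change was the larger.

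Probe sets with 1 ordinary gene symbol were also ranked by the smallest unadjusted p, with no minimum level. The higher side was led by P22k15 (0.77), Slc18a3 (0.76), Or8b1d (0.63), Castor1 and C4h12orf60 (0.50). Slc18a3 is the vesicular acetylcholine transporter and Or8b1d an olfactory receptor, and apart from Castor1 their levels were 1.10 to 1.53, below the median probe set. On the lower side the 5 were Tnk2, Smco4, Rab40c, Gna13 and the olfactory receptor Or1l4b (−0.69, level 1.34).

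The difference of changes equals the offset between the groups at day 14 minus the offset at day 0. The day 0 offset compares rats before any injection, and no probe set passed the adjusted test there (0 of 36685, 0%), with 615 higher in MIA (1.68%) and 781 lower (2.13%) at an unadjusted p under 0.05. At day 14 none passed either (0%), and 621 were higher (1.69%) and 998 lower (2.72%). Probe sets with an unadjusted p under 0.05 and the same direction on both days numbered 14 higher, 2.28% of those at day 0 and 2.25% of those at day 14, and 52 lower, 6.66% and 5.21%. All 12 lower genes above stood higher in MIA rats at day 0 and lower at day 14, and all 8 higher genes the reverse, so both ends entered each difference. The size of the day 0 part varied among them. It was 0.85 of the 1.16 for Tnk2, whereas Gtf3c6 had an offset of 0.12 at day 0 and −0.60 at day 14, and Scx −0.06 at day 0 and 0.49 at day 14. Of the 141 lower probe sets without overlap, 17 also had separate levels at day 14 and 13 had separate, opposite levels at day 0. Of the 146 higher ones these numbers were 18 and 23. These probe sets were picked on a difference built from the same levels, which favours such separation. The share over all probe sets is not given here, so the counts are a description.

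**Figure D3:**
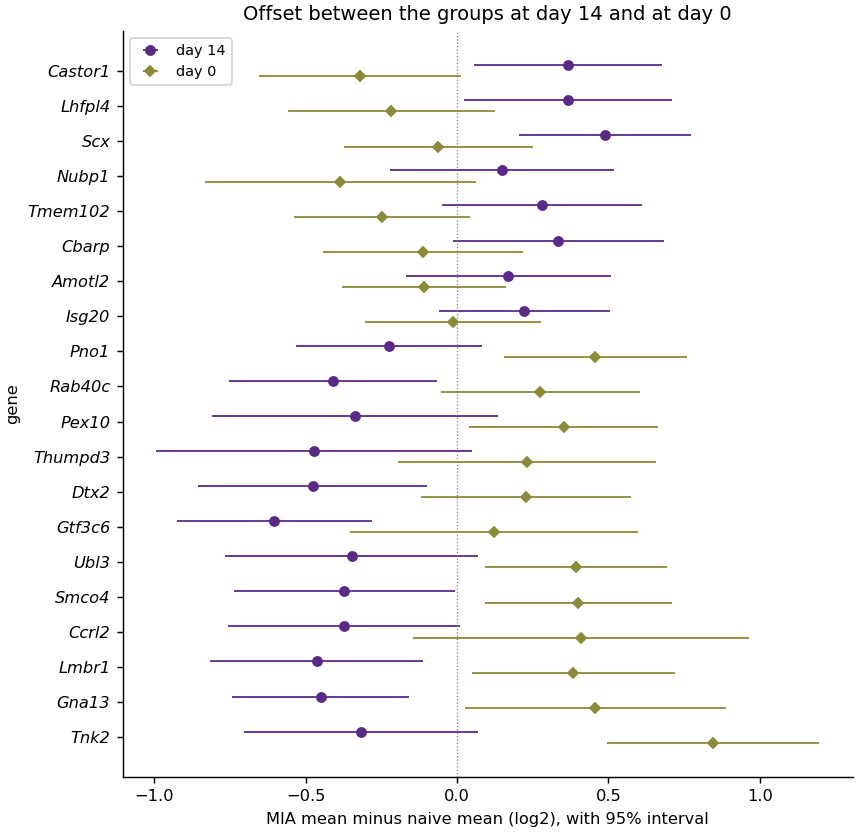
Offset between the groups (mean of 6 MIA rats minus mean of 4 naive rats, log2, horizontal axis) at day 14 (circles) and at day 0 (diamonds) for the same 20 genes, with 95% intervals from limma. The day 14 and day 0 offsets lie on opposite sides of 0 for every gene, as the choice of genes favours; for Tnk2 the day 0 offset of 0.85 is the larger, and for Gtf3c6 the day 14 offset of −0.60.

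The genes with the smallest p at day 0, among probe sets with 1 ordinary gene symbol, had various roles. The lowest p of all probe sets at day 0 belonged to one without such a symbol. Higher in MIA rats before injection were Tnk2, the zinc transporter Slc39a8 by 0.48, the tRNA methyltransferase subunit Trmt61a by 0.71, the nucleolar rRNA methyltransferase fibrillarin (Fbl) by 0.69, and the pseudogene Fdps-ps4. Fbl then had a difference of changes of −0.94 ± 0.25 (SE) and was lower in MIA rats by 0.25 at day 14, and with the day 0 level as covariate the difference was −0.24. Lower were Gzma, the calcium-binding protein calbindin (Calb1) by 0.51, the serotonin receptor Htr1b by 0.56 and the olfactory receptors Or5m8 and Or2t48e.

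Gzma, which encodes the protease granzyme A of natural killer (NK) and cytotoxic T cells, lay lower in MIA rats on both days, with a difference of changes near 0. At day 14 its level was 3.18, 3.92 and 4.47 (lowest, median and highest) in MIA rats, against 5.39, 5.00, 4.10 and 5.06 in naive rats. At day 0 it was 3.02, 3.62 and 4.00 in MIA rats, against 4.36, 4.93, 4.45 and 4.47 in naive rats. The groups did not overlap before the injection and did so at day 14 by a single naive rat. At day 14 the offset was −1.05 and before the injection −0.99 (adjusted p = 0.98 and 1.00 in limma), and the difference of changes was −0.06 ± 0.31 (SE), with a 95% interval of −0.74 to 0.61. It crossed 0 when single rats were left out, between −0.29 and 0.17.

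**Figure D4:**
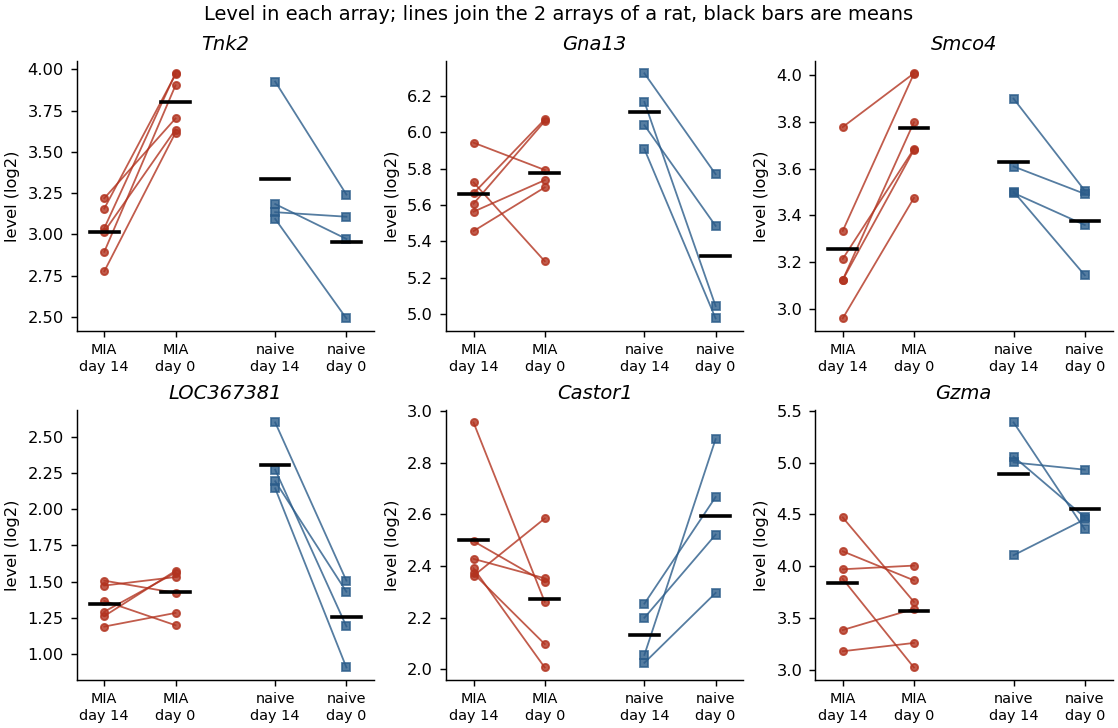
Level (log2, vertical axis) of 6 genes in each array at day 14 and day 0, for 6 MIA rats (red circles, left) and 4 naive rats (blue squares, right); lines join the arrays of a rat and black bars are means. Tnk2 and Smco4 are lower at day 14 in every MIA rat and higher in every naive rat, LOC367381 is higher at day 14 in every naive rat (mean change −0.08 in MIA rats and 1.04 in naive rats), and Gzma lies lower in MIA rats on both days.

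Of 23 NK and cytotoxic genes measured, 16 had a difference below 0 and 7 above, and the median was −0.21. At an unadjusted p under 0.05, 2 were lower and none higher, where 1.88% of all genes were lower and 1.19% higher. These were Klrd1 (CD94, a subunit of NK receptors) and Tbx21 (T-bet, the transcription factor of NK and type 1 T cells), at −0.52 each, and neither overlapped between the groups, as held for 0.384% of all probe sets in this direction. Klrd1 had changes of −0.33 to 0.20 in MIA rats, against 0.59, 0.59, 0.49 and 0.28 in naive rats. Tbx21 had −0.50 to 0.19 in MIA rats, against 0.47, 0.30, 0.42 and 0.37 in naive rats. The NK receptor Ncr1 and the ligand Faslg had differences of −0.50 and −0.46 (unadjusted p = 0.079 and 0.083 in limma). Perforin (Prf1), named after its values were seen, had mean changes of 0.39 in MIA rats and 0.60 in naive rats. The mean change of the list was 0.01 ± 0.13 in MIA rats and 0.18 ± 0.16 in naive rats (SD, n = 6 and 4), and the rats of the groups overlapped. At an unadjusted p under 0.05, 1 of the 23 was higher at day 14 in MIA rats and 7 in naive rats, with 0 lower (2.36% and 3.87% of all probe sets were higher). Between the groups, 2 were lower in MIA rats at day 0 and 7 at day 14, when 1 was higher (2.13% and 2.72% of all probe sets were lower). Without MIA replicate 2 the list's median was −0.13, with Klrd1 and Tbx21 at −0.51 each.

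Both arms had shifts over the 14 days in several lists, among them neutrophil and red cell genes, none past the adjusted test. The counts within an arm are given at the deposited scaling, with MIA replicate 2 included. In a list of neutrophil granule and alarmin genes, 12 of 26 were higher at day 14 in MIA rats and 12 of 26 in naive rats at an unadjusted p under 0.05, and none was lower in either, where 2.36% and 3.87% of all probe sets were higher. The chemokine receptor Cxcr2 was higher by 0.67 in MIA rats and 0.82 in naive rats, the growth factor receptor Csf3r by 0.62 and 0.80, and the protease Mmp9 by 0.56 and 0.70. For the difference of changes none of the 26 had an unadjusted p under 0.05, and the list's median was −0.08 (−0.02 without MIA replicate 2). The mean change of the list was −0.10 in MIA replicate 2 and 0.19 to 0.47 in the other MIA rats, and 0.18 to 0.39 in naive rats. Genes of red cells and reticulocytes had lower levels at day 14 in both arms, 10 of 31 in MIA rats and 6 of 31 in naive rats at an unadjusted p under 0.05, with none higher, where 4.33% and 3.27% of all probe sets were lower. The transferrin receptor Tfrc, which brings in iron, had changes of −0.49 in MIA rats and −0.33 in naive rats, and the membrane protein Rhag −0.42 and −0.30. Here too no gene had an unadjusted p under 0.05 in the difference, and the median was −0.04. These genes were chosen after their values were seen. The matrix gene Col1a1, the main collagen of bone and tendon, changed by −1.33 in MIA rats and −0.73 in naive rats, with changes of −1.84 to −0.64 and −1.15 to −0.47 that overlapped (difference −0.61 ± 0.26, SE, and −0.19 with the day 0 level as covariate).

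None of 27 lists for cell types, tissues and pathways had a gene past the adjusted test, and in all 27 the mean changes of MIA and naive rats overlapped. Over all 14557 genes the median difference was −0.03, with 1.19% higher and 1.88% lower at an unadjusted p under 0.05, and without MIA replicate 2 it was 0.01, with 1.57% higher and 1.15% lower. Over the 18343 probe sets at or above the median level it was −0.08, with 208 higher and 574 lower in the same fit. Without MIA replicate 2 these values were −0.02, 312 and 392. At or above that level were 12 of 14 glycolysis, 19 of 19 antioxidant, 21 of 22 T cell and 11 of 16 Toll-like receptor genes. Apart from the NK list, the most negative medians of the difference were −0.30 for glycolysis (0 of 14 genes at an unadjusted p under 0.05), −0.20 for antioxidant genes (0 of 19) and −0.16 for T cell (0 of 22) and Toll-like receptor genes (0 of 16). Without MIA replicate 2 they were −0.23, −0.08, −0.07 and −0.11. In the same T cell list, Themis (a signalling protein of thymocytes) and the costimulatory receptor Cd28 had differences of −0.38 and −0.32 (unadjusted p = 0.061 and 0.091 in limma). B cell genes had a median of −0.14, monocyte genes −0.07, platelet genes −0.12 and class II antigen presentation genes −0.09, with no gene at an unadjusted p under 0.05; without MIA replicate 2 these were 0.01, −0.02, −0.10 and −0.03. The thrombin receptor F2rl2 was the only one of the 21 platelet genes whose groups did not overlap, at −0.28, where 56 of all 14557 genes had no overlap on the lower side.

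The counts that follow are at an unadjusted p under 0.05, where 1.19% of all genes were higher and 1.88% lower. Of inflammatory cytokine and NF-kB genes 1 of 33 was lower, Tnf, with changes of −0.31 to 0.23 in MIA rats, against 0.54, 0.52, 0.82 and 0.00 in naive rats (difference −0.54 ± 0.19, SE; level higher by 0.51 in MIA rats at day 0 and lower by 0.03 at day 14). Of interferon-stimulated genes 1 of 25 was lower, Oas1b at −0.80, a member of the antiviral oligoadenylate synthetase family. Of cell cycle and DNA repair genes 1 of 22 was lower, Mcm7 of the replicative helicase, at −0.55. Of 74 genes of oxidative phosphorylation 1 was lower, Cyc1 (cytochrome c1) at −0.60, and of 33 proteasome genes 2 were lower, Psmd12 at −0.54 and Psmd10 at −0.49. With the day 0 level as covariate the differences were −0.32 for Tnf, −0.40 for Cyc1, −0.36 for Psmd12 and −0.07 for Psmd10. Of 120 cytoplasmic ribosomal protein genes 4 were higher and 2 lower, among them Rps18l2 at 0.83 and Rpl13 at −1.06, and the median was −0.02; these genes have many near-identical copies, so a probe set may not read 1 gene. In the remaining lists the count of genes at an unadjusted p under 0.05 was at most 1. Skin keratinocyte genes had a median of 0.07 (0 of 7), skeletal muscle genes −0.01 (0 of 8), and Krt14, Acta1 and Ckm, markers of tissue near the needle, had levels of 2.38 to 2.63, just above the median probe set at 2.26.

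**Figure D5:**
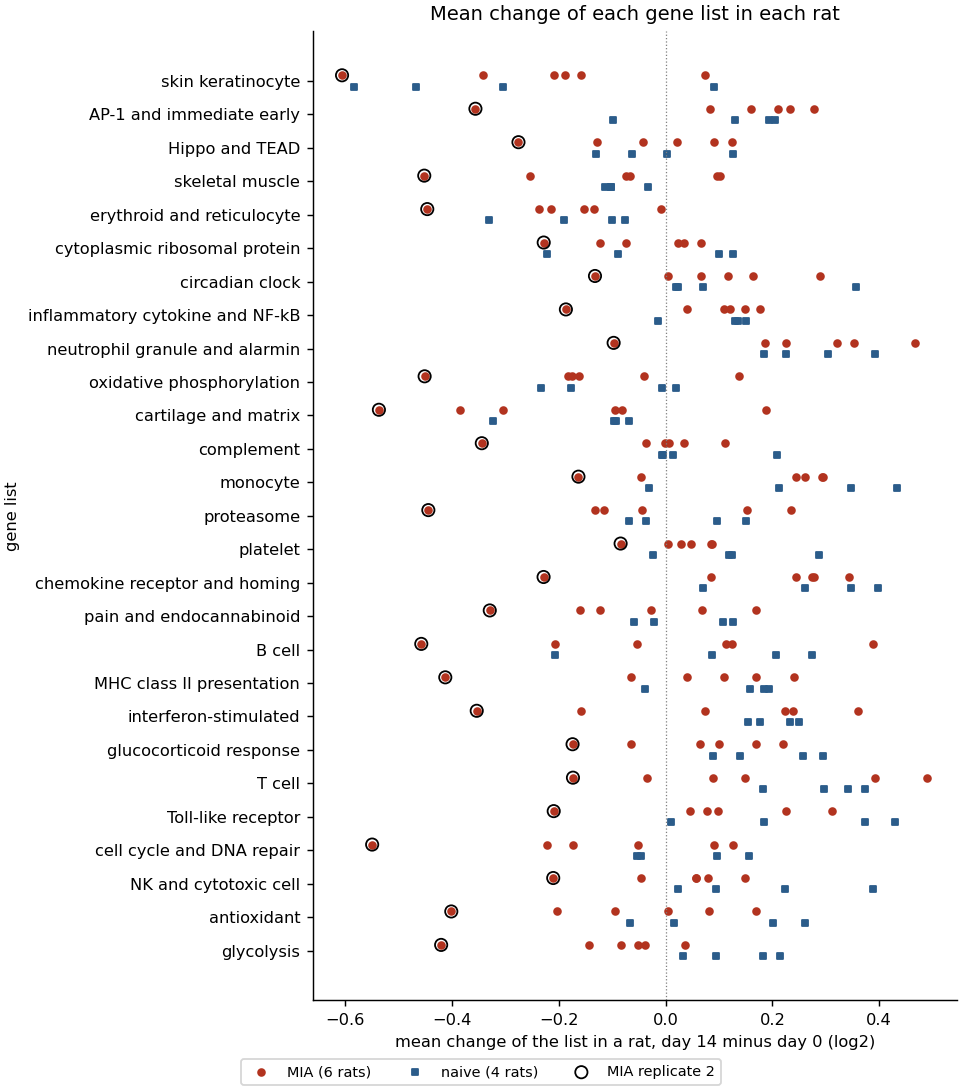
Mean change of each of 27 gene lists in each rat (day 14 minus day 0, log2, horizontal axis), for 6 MIA rats (red circles, upper row of a list) and 4 naive rats (blue squares, lower row); a ring marks MIA replicate 2. MIA replicate 2 is the lowest of the MIA rats in every list, and the rats of both groups overlap in every list.

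A further contrast left day 0 out and asked whether the MIA minus naive offset at day 14 differed from its mean at days 2 and 28. No probe set passed the adjusted test (0 of 36685, 0%), with 973 higher (2.65%) and 1293 lower (3.52%) at an unadjusted p under 0.05. The smallest p values were sought among probe sets with 1 ordinary gene symbol. On the lower side they belonged to Psmd10, a regulator of the proteasome (−0.64), the lysophospholipase-like Lyplal1 (−0.81) and Rpl13 (−1.59). On the higher side they belonged to Kcnk13, a potassium channel, Rtp2, a chaperone of odorant receptors (0.86), and the cadherin Celsr2. Rpl13 had levels of 1.87 to 3.25 in MIA rats, against 4.00, 3.24, 4.37 and 3.69 in naive rats at day 14. At day 0 it had 2.14 to 4.36 in MIA rats, against 2.76, 3.25, 2.87 and 3.38 in naive rats. The genes without overlap were chosen on the same day 14 arrays, which favours their counts in this contrast. Of the 12 lower ones, 6 had an unadjusted p under 0.05 for this contrast in limma, among them Dtx2 (−0.64), Lmbr1 (−0.54) and Smco4 (−0.53), while Tnk2 had −0.40 and Pno1 −0.18 and did not. Of the 8 higher genes 5 did, with Scx at 0.51. The differences from day 0 at days 2 and 28 share the day 0 arrays with day 14. For Tnk2 they were −0.84 and −0.69, for Gna13 −0.27 and −0.77, and for Dtx2 −0.10 and −0.03.

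The study listed 72 transcripts from all 5 days of these rats and gave 41 of them a pattern, A to C, so their values are given as a description. Of the 16 of pattern C, 15 had a difference of changes below 0 at day 14, the median was −0.44 and 6 had no overlap between the groups, against 0.384% of all probe sets on the lower side. The mean change of the 16 was −0.18 ± 0.12 in MIA rats and 0.32 ± 0.07 in naive rats (SD, n = 6 and 4). Without MIA replicate 2 the median was −0.41, and with the day 0 level as covariate −0.27. The median offset of the 16 was 0.21 at day 0, before the injection, and −0.16 at day 14. At an unadjusted p under 0.05 in limma, 6 were higher in MIA rats at day 0 (1.68% of all probe sets). At day 14, 3 were lower (2.72% of all probe sets). The lowest p of all probe sets belonged to a member of pattern C that the study names LOC367381 and the platform table leaves unnamed. Its changes were −0.31 to 0.17 in MIA rats, against 1.23, 0.76, 1.08 and 1.09 in naive rats. Its level at day 14 was 1.19 to 1.51 in MIA rats, against 2.14, 2.19, 2.27 and 2.60 in naive rats. At day 0 it was 1.20 to 1.58 in MIA rats, against 0.91, 1.43, 1.19 and 1.51 in naive rats. It was thus dim throughout, overlapped at day 0 and was separate at day 14 through the naive rats (difference −1.12 ± 0.17, SE; adjusted p = 0.46 in limma). The contrast with days 2 and 28, without day 0, was −1.12. It uses the same day 14 arrays on which the lowest p rests, which favours a large value.

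Grsf1, an RNA-binding protein of mitochondrial RNA granules, was another member named by the study, at −0.66 with no overlap. The zinc finger gene Zfp37 had a pair of probe sets with differences of opposite sign. The one in pattern C had changes of −0.89 to 0.07 in MIA rats, against −0.08, 1.46, 0.96 and 0.43 in naive rats (difference −1.05), and the one in pattern B had −0.02 to 0.71 in MIA rats, against −0.21, −0.60, 0.09 and −0.16 in naive rats (difference 0.67). The 11 transcripts of pattern B had a median of 0.07, and 8 were above 0. Among them Tead2, a transcription factor of the Hippo pathway, had changes of −0.15 to 0.75 in MIA rats, against −0.44, 0.27, −0.92 and −0.99 in naive rats (difference 0.89 ± 0.27, SE). It was lower in MIA rats at day 0 by 0.56 and higher at day 14 by 0.33, and with the day 0 level as covariate the difference was 0.21. For the Zfp37 probe set of pattern C this value was −0.42. The 14 of pattern A had a median of −0.19 with 9 below 0, among them Bri3bp at −0.69 and Mocos at −0.58 (−0.28 with the day 0 level as covariate).

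Pattern B also holds the microRNA gene Mir322. Sequences are printed for this and for 4 further microRNA genes that were chosen after their values were seen, to show which of them share a seed. They are mature rat sequences from RefSeq (GRCr8), 5′ to 3′, with the seed, bases 2 to 8, in capitals, by which a microRNA pairs with its targets. The probe sets read the gene and not a mature arm.
rno-miR-221-3p: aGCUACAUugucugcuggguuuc
rno-miR-222-3p: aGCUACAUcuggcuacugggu
rno-miR-322-5p: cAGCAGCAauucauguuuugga
rno-miR-296-5p: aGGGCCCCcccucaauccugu
rno-miR-223-3p: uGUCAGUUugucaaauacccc

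The arms miR-221-3p and miR-222-3p share their seed and lie near each other on chromosome X (chrX:6023246-6023268 and chrX:6022682-6022702, plus strand). Their genes had similar mean differences of changes, 0.50 ± 0.21 for Mir221 and 0.50 ± 0.24 for Mir222 (SE; unadjusted p = 0.034 and 0.057 in limma). Mir221 had changes of −0.23 to 0.66 in MIA rats, against −0.38, 0.15, −0.12 and −0.52 in naive rats. Mir222 had −0.43 to 0.64 in MIA rats, against −0.47, −0.29, −0.63 and −0.10 in naive rats. The changes of Mir221 and Mir222 had opposite signs in MIA replicates 1, 3 and 4 and naive replicate 2. They had the same sign in the other rats. In MIA replicate 1 they were 0.43 for Mir221 and −0.43 for Mir222. Both overlapped between the groups and were dim, at 1.42 and 1.51. The offset between the groups was −0.31 for Mir221 and −0.29 for Mir222 at day 0, and 0.20 and 0.21 at day 14. Mir322 (chrX:137726198-137726219, minus strand, for miR-322-5p), of the family with the AGCAGCA seed, had changes of −0.09 to 0.34 in MIA rats, against −0.61, −0.28, −0.28 and −0.46 in naive rats, with no overlap (difference 0.53 ± 0.16, SE), at a level of 1.16. Mir296 (chr3:183470114-183470134, minus strand, for miR-296-5p) had 0.13 to 1.60 in MIA rats, against −0.42, −0.10, 0.00 and −0.19 in naive rats, also with no overlap (difference 0.81 ± 0.27, SE), at a level of 2.25. The offsets at day 0 and day 14 were −0.56 and 0.25 for Mir296, so the day 0 part was the larger, and −0.17 and 0.36 for Mir322. Mir223 (chrX:65151450-65151470, plus strand, for miR-223-3p), a microRNA of neutrophils and monocytes, was the brightest of the microRNA genes measured, at a level of 6.48. It had changes of 0.01 to 0.59 in MIA rats, against 0.76, 0.28, 0.12 and 0.81 in naive rats, so that its levels were higher at day 14 in all 10 rats and the groups overlapped (difference −0.22 ± 0.20, SE). Of the 26 probe sets with 1 microRNA symbol, 22 were below the median level, 2 were higher at an unadjusted p under 0.05 (Mir221 and Mir296) and 0 lower, against 1.87% and 2.41% of all probe sets, and the median difference was 0.03. RefSeq held a sequence for 25 of them.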

How the data were processed

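Whole blood RNA was measured on 1 array per sample. The authors subtracted background, normalized by quantiles and deposited log2 signals; the submitters name oligo 1.36.1, and the summary of probes is not given in the sources used here. Of 36685 probe sets, 14824 carry 1 symbol in the platform's table, 829 several and 21032 none; 14670 matched a GRCr8 gene table. Study transcripts without a symbol were named from the study's list.

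For each rat the day 14 minus day 0 change was taken, and limma 3.58.1 in R 4.3.3 (lmFit, eBayes) compared 6 MIA with 4 naive changes, two-sided, with Benjamini-Hochberg adjustment over all probe sets at 0.05. Offsets were fitted on 10 arrays each, and day 14 against days 2 and 28 on 30. The labels' animal numbers pair the arrays of a rat, so the rat is a block; residuals at day 0 and day 14 correlated by 0.06 on average within rats (−0.03 to 0.14, positive in 8 of 10) and −0.01 between rats. A list used 1 probe set per gene, the brightest. Lists, tests and genes were chosen with earlier results of these data known. Picks by no overlap or by smallest p were limited to probe sets with 1 ordinary gene symbol, which leaves out symbols such as LOC, RGD, Olr and Mir. Genes named are up to 12 higher and 12 lower without overlap, 5 each way with the smallest p in the difference and at day 0, 3 each way in the contrast with days 2 and 28, up to 4 per list and those of the study's patterns. Only some of the last 2 kinds are named. Some items, among them a gene list, are not reported here. Fits were tested on simulated data. Figures used Python 3.11.15 and matplotlib 3.10.9. Depth does not apply to arrays; the number of rats limits precision, and the labels do not say whether replicates differ in batch.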

Additional observations from a re-analysis of the deposited data

Results flagged for a closer look

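Some values stood far from the rest of their group. Of 200 groups of rats examined (genes named in the text and list means, in each treatment), 17 had a rat whose gap to its nearest neighbour was too large by Dixon's criterion (8.50%), and chance flags about 1 in 20. Among MIA rats, replicate 2 was low for Grsf1 (−0.85, the others −0.25 to 0.08), for the mean of AP-1 and immediate early genes (−0.36, the others 0.08 to 0.28) and for the mean of complement genes (−0.34, the others −0.04 to 0.11); this is the rat whose day 14 array stood apart, and the part of that array in these values was not tested. Replicate 6 was high for Cbarp (0.50) and Fdps-ps4 (0.65) and low for the mean of study pattern B (−0.15), and replicate 1 was high for Themis (0.77). Among naive rats, replicate 2 stood apart for Lmbr1 (0.59), P22k15 (−0.98) and the mean of cartilage and matrix genes (−0.32), replicate 3 for Rpl36l6 (0.0337), inflammatory cytokine and NF-kB genes (−0.0148) and study pattern B (−0.0418), replicate 4 for circadian clock (0.36) and complement genes (0.21), and replicate 1 for class II antigen presentation (−0.0388) and skeletal muscle genes (−0.0337).

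Genes named in the text whose change had 1 sign in all 6 MIA rats and the other sign in all 4 naive rats were Tnk2 (difference −1.16), Smco4 (−0.77), Cbarp (0.45) and C4h12orf60 (0.50). The test of the difference itself gave adjusted p = 0.46 for Tnk2 and 1.00 for the other 3 in limma.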

How the results depend on the processing

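No alternative gave a probe set past the adjusted test for the difference of changes, the MIA change or either offset. The naive change had 1 with no replicate block, 1 with a random replicate block, 1 with the variance taken over 50 arrays and 1 over 49 arrays, and the contrast of day 14 with days 2 and 28 had 1 without MIA replicate 1. Without MIA replicate 2 none passed in any comparison. At an unadjusted p under 0.05 the difference of changes had 1571 probe sets, 1366 with no replicate block and 1538 with a random replicate block, in which the mean correlation within rats was 0.05. With the variance over 50 arrays, which include an array of day 21 that stands apart, the counts were 847 for the difference, 1304 for the MIA change, 1406 for the naive change and 885 for the day 0 offset, and over 49 arrays, without that array, the difference had 1549. With the brighter 18343 probe sets alone, fewer being tested, they were 728, 1421, 1547 and 630, and 802 for the day 14 offset. Leaving out each rat gave 1237 to 1860 for the difference and 0 to 1 past the adjusted test in the contrast with days 2 and 28.

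Of 74 gene results, 73 kept their direction in every setting run; Gzma's difference turned to 0.0773 after quantile normalization of the 20 arrays and ranged from −0.29 to 0.17 over rats left out, with 0.01 without MIA replicate 2, 0.03 without MIA replicate 5, 0.17 without naive replicate 1 and 0.02 without naive replicate 4. Adjusted p over all of these was at least 0.17. List medians moved by more than the spread between rats in 4 of 668 settings, all in lists of the study. Leave-one-out settings of the contrast with days 2 and 28 were added after the data were seen. Dim probe sets and 4 naive rats limit what could be seen.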
